A study of Mus musculus with 41 samples.

Results

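The interferon-induced GTPases described here are 10 mouse genes, the guanylate-binding protein genes *Gbp2*, *Gbp3*, *Gbp5* and *Gbp7* and the immunity-related GTPase genes *Irgm1*, *Irgm2*, *Igtp*, *Iigp1*, *Tgtp1* and *Ifi47*. They were taken by symbol, and all 10 were found among the 22438 genes with ribosome footprint counts and the 55385 genes with mRNA estimates. The list was chosen by the footprint and mRNA values of *Pelo*-/- fibroblasts, and with other results of these data known. It used no threshold, so no gene lies just inside or outside it. Values of these genes in *Pelo*-/- fibroblasts are therefore given as a description, without a test. Every other comparison was tested across all genes.

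The study deleted *Hbs1l* or *Pelo*, which encode partners in the rescue of stalled ribosomes, or *Upf2*, which encodes a factor of nonsense-mediated mRNA decay, and compared ribosome footprints and, in fibroblasts, mRNA with those of controls. Embryos at E8.5 were *Hbs1l*-/- or *Hbs1l*+/+ on the C57BL/6NJ strain, with 3 libraries per genotype and 5 embryos pooled in each. Cerebella at P14 came from Tg(Atoh1-Cre); *Hbs1l* cKO mice or Tg(Atoh1-Cre); *Hbs1l*+/+ controls on C57BL/6J, with 3 libraries per genotype and 1 cerebellum in each. Primary mouse embryonic fibroblasts (MEFs), grown from single embryos at embryonic day 13, carried CAG-Cre ER on a C57BL/6 background and were given 1 μM 4-hydroxytamoxifen for 48 h to delete *Hbs1l*, *Pelo* or *Upf2*. Control MEFs carried the same Cre and received the same drug, so Cre and tamoxifen were common to all MEF groups, as was the n-Tr20 B6J/B6J genotype. Footprints were sequenced in 3 libraries per mutant, each mutant in its own pool with 3 control libraries, and mRNA in 3 *Hbs1l*-/-, 3 *Upf2*-/-, 2 *Pelo*-/- and 3 control libraries. A footprint replicate joined 2 dishes of 1 embryo's MEFs, an mRNA replicate used 1 dish, and the sources used here do not state that the same embryos served both assays. The Atoh1-Cre transgene acts in the granule cell lineage, and the cKO mice were *Hbs1l* fl/- and n-Tr20 B6J/B6J, so other cerebellar cells kept 1 functional *Hbs1l* allele while controls had both. *Hbs1l*-/- MEFs likewise came from *Hbs1l* fl/- embryos, whereas *Pelo*-/- and *Upf2*-/- MEFs came from *Pelo* fl/fl and *Upf2* fl/fl embryos.

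Guanylate-binding proteins are large GTPases that assemble on the membranes of vacuoles holding microbes and on the microbes themselves, and take part in inflammasome activation. Immunity-related GTPases are smaller: *Irgm1*, *Irgm2* and *Igtp* (also called Irgm3) encode regulators that sit on the cell's own membranes and hold the effectors inactive, while *Iigp1* (Irga6), *Tgtp1* (Irgb6) and *Ifi47* (Irgd) encode effectors that load onto pathogen vacuoles. Most members of both families are low in resting fibroblasts, and both families are strongly induced by interferon. Type II interferon acts through JAK kinases on the gamma-activated sequence (GAS), and type I interferon acts through a complex that holds STAT2 and IRF9 on the interferon-stimulated response element (ISRE).

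The genes lie in few clusters (Gencode M21 annotation, GRCm38). *Gbp5* (chr3:142493978-142522344), *Gbp7* (chr3:142530342-142550149), *Gbp3* (chr3:142560026-142573209) and *Gbp2* (chr3:142620602-142638008) lie close together on the plus strand of chromosome 3. *Irgm1* (chr11:48861968-48871683) and *Tgtp1* (chr11:48985327-48994172) lie on the minus strand of chromosome 11, and *Ifi47* (chr11:49076587-49096974) on its plus strand. *Igtp* (chr11:58199556-58207591) and *Irgm2* (chr11:58199618-58222782) overlap on the plus strand of the same chromosome and share 162 exonic bases. Reads from similar coding sequences may be shared between genes. Of the 30-base words in its coding sequence, *Tgtp1* shared 92.1% with its neighbour *Tgtp2*, so counts for *Tgtp1* could not be separated from those of *Tgtp2* and are uncertain. *Irgm2* and *Igtp* shared 16.3% and 15.6% of their words with each other, *Iigp1* shared 16.7% with other genes, and the *Gbp* genes shared between 6.63% and 11.2%.

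The promoters of most of these genes hold letters of the element that type I interferon signalling uses, and they are shown because footprints of most of these genes were higher in the mutant MEFs than in controls. RefSeq promoters (GRCm38.p6) matched 9 of the 10 genes, and the 250 bases upstream of each transcription start were searched on both strands for an ISRE-type motif, GAAANNGAAA, and a GAS-type motif, TTCNNNGAA. The ISRE-type motif was found in 8 of the 9 genes, against 2.977% of all 32851 promoters searched in the same way. The GAS-type motif was found in 5 of the 9, *Gbp5*, *Gbp7*, *Irgm2*, *Igtp* and *Tgtp1*, against 7.02% of all promoters. The window of *Ifi47* held neither sequence, and 1 of the 2 listed promoters of *Gbp3* held none. A match of letters is a description and does not show a factor bound there. In each stretch below, given 5′ to 3′ on the gene's strand up to 40 bases to either side of the match or as far as the transcription start, capitals mark the ISRE-type match on either strand.
Gbp2, chr3:142620564-142620653, plus strand: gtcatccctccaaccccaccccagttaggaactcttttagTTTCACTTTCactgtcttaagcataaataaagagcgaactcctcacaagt
Gbp3, chr3:142559959-142560043, plus strand: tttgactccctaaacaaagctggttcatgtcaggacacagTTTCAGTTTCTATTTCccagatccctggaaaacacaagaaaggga
Gbp5, chr3:142496729-142496818, plus strand: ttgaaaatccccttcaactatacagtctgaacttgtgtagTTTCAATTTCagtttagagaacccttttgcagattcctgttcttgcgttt
Gbp7, chr3:142530243-142530332, plus strand: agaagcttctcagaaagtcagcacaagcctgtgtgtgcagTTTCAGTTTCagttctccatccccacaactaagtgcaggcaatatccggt
Irgm1, chr11:48871421-48871490, minus strand: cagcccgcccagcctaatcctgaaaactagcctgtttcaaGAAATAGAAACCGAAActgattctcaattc
Irgm2, chr11:58214873-58214962, plus strand: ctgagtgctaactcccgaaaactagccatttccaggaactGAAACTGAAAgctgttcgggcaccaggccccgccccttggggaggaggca
Igtp, chr11:58199482-58199555, plus strand: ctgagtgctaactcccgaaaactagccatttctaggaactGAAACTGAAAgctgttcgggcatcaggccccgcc
Tgtp1, chr11:48992274-48992363, minus strand: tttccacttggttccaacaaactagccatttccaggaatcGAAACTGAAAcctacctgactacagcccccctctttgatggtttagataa

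In *Gbp3* and *Irgm1* the capitals cover 2 overlapping matches. The stretches of *Irgm2* and *Igtp* were identical at 72 of 74 bases, whereas those of *Gbp2* and *Gbp7*, also aligned on the match, were identical at 31 of 90. Counted from the RefSeq start, the match began at −30 in *Irgm1* and at −165 in *Gbp5*, with the other genes between these. These starts need not be the ends of the Gencode spans given above. Those of *Irgm2*, *Gbp5* and *Tgtp1* lie well inside them. In the *Irgm2*, *Igtp* and *Tgtp1* stretches a GAS-type match lay directly upstream of the ISRE-type match. The map of motif matches shows these distances.

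**Figure D1:**
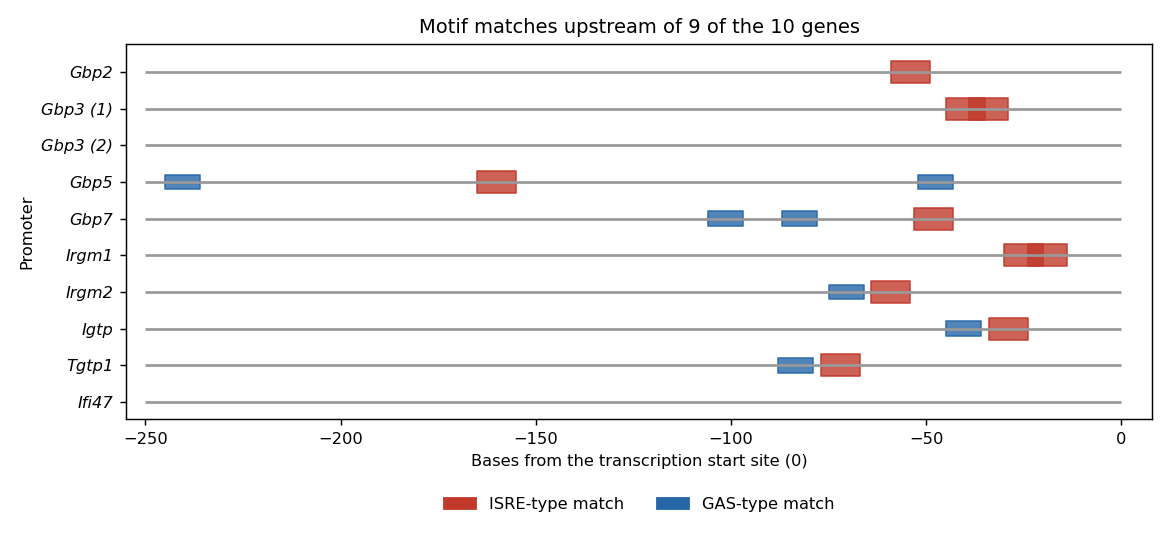
Position of ISRE-type (red) and GAS-type (blue) motif matches in the 250 bases upstream of the transcription start of 9 genes (x axis, bases from the start; 1 line per RefSeq promoter, 2 for *Gbp3*). The ISRE-type match lies within 77 bases of the start in every gene that has one except *Gbp5*, and *Ifi47* has no match.

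Footprint libraries held 2634480 to 7298812 counts in embryos, 10919139 to 22591768 in cerebella and 5782990 to 25607974 in MEFs, and mRNA libraries held 22713643 to 86425762 estimated counts. Control MEF footprint libraries with the same number in the 3 pools differed by about sampling noise (chi-square per gene 1.104 to 1.186 in 9 pairs, against 4.06 to 12.6 between numbers), so they were summed and counted as 3 controls wherever values per library are given. Levels are given in CPM, the counts of a gene scaled to the total of its library. *Hbs1l* footprints fell from 32.9–38.9 CPM in control MEFs to 1.5–2.57 in *Hbs1l*-/- MEFs, and *Pelo* footprints from 30.7–36.6 to 1.99–2.98 CPM in *Pelo*-/- MEFs. In mRNA *Hbs1l* went from 73.2–83.4 to 9.41–12.4 CPM and *Pelo* from 23.8–25.8 to 0.0857–0.544 CPM in their mutants. *Hbs1l* footprints were at 2.69–8.58 CPM in mutant against 48.3–57.5 in control embryos and at 12.7–15.5 against 37.3–44.5 CPM in cerebella. *Upf2* counts were higher, not lower, in its mutant: the 3 libraries labelled *Upf2*-/- held 113, 113 and 119 footprint CPM against 48.6–57.6 in controls, and 29.3–61.7 mRNA CPM against 15.8–21.4. Counts over the whole gene do not single out the deleted part, so they neither bear out nor contradict this label, and these libraries are called "labelled *Upf2*-/-" throughout. The paper reports that targets of nonsense-mediated decay and transcripts with retained introns accumulated specifically in its *Upf2*-/- MEFs, which was not examined here. All 10 fibroblast markers were present in every MEF group (44847–54333 footprint CPM in sum), and the T and NK cell markers summed to at most 0.773 CPM, with *Cd3e*, *Cd3d*, *Ncr1* and *Klrb1c* at 0 in all MEF footprint groups. Macrophage markers were detected in MEFs and differed between groups, as described after the results they move with. In bulk libraries such as these, a change in the number of cells of a type and a change in RNA per cell cannot be told apart. Nothing states that libraries of a MEF group came from separate cultures beyond separate embryos, and p-values measure the spread between these libraries.

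In control MEFs *Irgm1* was by far the highest of the 10 genes per length. Its mRNA stood at 20.7 ± 3.21 TPM (SD, n = 3), a share of transcripts that takes length into account, followed by *Gbp2* at 2.26 ± 0.531 and *Ifi47* at 2.26 ± 0.355 TPM, which did not differ beyond their spread. *Igtp* (0.53 TPM), *Irgm2* (0.367 TPM), *Tgtp1* (0.34 TPM) and *Gbp3* (0.28 TPM) came next, each overlapping with its neighbour in this order, and *Gbp7* (0.133 TPM), *Iigp1* (0.0986 TPM) and *Gbp5* (0.0382 TPM) were lowest, *Gbp7* and *Gbp5* without overlap. Footprints per kilobase of coding sequence placed *Irgm1* first as well, at 49.9 ± 3.59 CPM per kb, but put *Ifi47* at 10.2 ± 0.95 above *Gbp2* at 4.34 ± 0.518, with no overlap. *Irgm2* (1.5) and *Igtp* (1.49) were alike on this scale, followed by *Gbp7* at 0.99, *Gbp3* at 0.627 and *Iigp1* at 0.429 CPM per kb. *Tgtp1* (0.0694) and *Gbp5* (0.0291 CPM per kb) were near the limit of detection, with 10 and 7 footprints over the 3 controls.

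The deletion of *Pelo*, by which the list was drawn up, went with the highest footprint levels of these genes in the series. *Gbp3* footprints stood at 1.2, 0.873 and 1.43 CPM in the controls and at 63.8, 41.9 and 81.6 CPM in *Pelo*-/- MEFs, a 60.2-fold difference (log2 5.91 ± 0.32 SE). *Iigp1*, the vacuole-loading effector (chr18:60376027-60392634, plus strand), went from 0.544, 0.499 and 0.55 to 62.7, 37.2 and 97.1 CPM. *Gbp5*, known for its part in inflammasome assembly, went from 0.0544, 0.0249 and 0.11 to 13.7, 7.06 and 19.6 CPM, 855 footprints against 7, or 240 times the CPM of controls (95% counting interval 116 to 598). The controls of these genes lay close to zero and no library of either group came near the other. The membrane regulators *Igtp* and *Irgm2* had 46.1-fold and 30.5-fold more footprints, *Gbp7* 26.3-fold and *Gbp2* 12.8-fold. *Tgtp1*, with 69 footprints against 10, went from 0.0272, 0.15 and 0.0825 to 1.14, 1.22 and 1.15 CPM, 13.5 times the CPM of controls (95% counting interval 6.94 to 29.5). The smallest differences were in the genes with the highest control footprints per kilobase: *Irgm1* went from 59.8, 57.7 and 66.2 to 231, 207 and 207 CPM (3.6-fold), and *Ifi47* from 11.7, 12.7 and 14.1 to 41.0, 24.5 and 54.7 CPM (3.09-fold). All 10 genes had every *Pelo*-/- library above every control, as had 24.5% of all 17072 genes with a footprint, and edgeR called 22.9% of 12486 tested genes higher in this comparison. Since these values chose the genes, nothing is read from that count. *Pelo*-/- library 3 was the highest for 8 of the 10 genes.

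The mRNA of the same genes did not follow the footprints in *Pelo*-/- MEFs. *Gbp3* mRNA was at 0.569, 0.32 and 0.733 CPM in controls and 0.29 and 0.129 CPM in the 2 *Pelo*-/- libraries (log2 −1.33 ± 0.54 SE). *Gbp2* mRNA was at 4.41, 3.96 and 5.8 against 2.75 and 2.48 CPM, and *Irgm1* mRNA at 34.6, 39.1 and 39.6 against 29.0 and 25.4 CPM. These 3 genes, *Tgtp1* and *Ifi47* had both *Pelo*-/- libraries below all controls, 5 of the 10 genes against 20% of all 32506 genes with mRNA. None had both above all controls, against 15.3% of all genes, and edgeR called 32.1% of 14705 tested genes in either direction. The mRNA values of *Pelo*-/- MEFs also chose the genes, so nothing is read from these counts. *Irgm2* (0.616, 1.0 and 1.57 against 1.7 and 1.33 CPM) and *Igtp* (0.996, 0.52 and 1.25 against 1.12 and 0.942 CPM) overlapped with their controls. So did *Gbp7* (0.379, 0.44 and 0.4 against 0.471 and 0.214 CPM), *Gbp5* (0.0474, 0.2 and 0.0533 against 0.181 and 0.129 CPM) and *Iigp1* (0.0474, 0.28 and 0.16 against 0.145 and 0.0 CPM). Mean mRNA was higher than in controls for *Irgm2*, *Igtp* and *Gbp5* and lower for the other 7 genes. The median log2 ratio over the 10 genes was 4.544 for footprints (all genes 0.007) and −0.304 for mRNA (all genes −0.025). Footprints relative to mRNA, here called translation efficiency (TE), were accordingly higher for all 10 genes, from a log2 difference of 2.05 ± 0.39 SE in *Ifi47* to 7.31 ± 0.68 in *Gbp3* and 8.04 ± 1.48 in *Iigp1*, for which 1 *Pelo*-/- mRNA library held no count and the fitted size depends on the prior count. Footprints and mRNA came from separate dishes and sequencing batches, so a difference between assays and a difference between cultures cannot be told apart in this or any TE value here.

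In *Hbs1l*-/- MEFs 6 genes, *Gbp2*, *Gbp3*, *Gbp7*, *Irgm2*, *Igtp* and *Iigp1*, rose both in footprints and in mRNA. Footprints of *Gbp3* rose 8.03-fold, from 1.2, 0.873 and 1.43 to 9.51, 9.94 and 7.04 CPM (log2 3.01 ± 0.26 SE, edgeR adjusted p = 3.5e-06, with calls made at 0.05 or less). *Iigp1* rose 18.1-fold, from 0.544, 0.499 and 0.55 to 7.7, 8.45 and 4.23 CPM (log2 4.17 ± 0.39, edgeR adjusted p = 5.1e-06). Its controls were too low to pass the count filter by themselves. *Iigp1* thus entered this test through the mutant libraries, where it was high, and its call is counted with that limit. *Igtp* rose 7.22-fold, from 2.2, 1.52 and 1.95 to 13, 18.1 and 11 CPM (edgeR adjusted p = 2.5e-06). In each of these regulators and effectors the lowest mutant library stood above the highest control. *Irgm2* rose 7.05-fold, *Gbp7* 5.88-fold and *Gbp2* 2.82-fold (edgeR adjusted p = 3e-06, 3.7e-05 and 7.6e-06), and *Irgm1*, already high in controls, rose 1.48-fold, from 59.8, 57.7 and 66.2 to 84.2, 96.3 and 87.1 CPM (edgeR adjusted p = 0.00029). *Ifi47* fell to 0.7-fold, from 11.7, 12.7 and 14.1 to 9.3, 10.9 and 7.4 CPM (edgeR adjusted p = 0.022). That call was lost without *Hbs1l*-/- library 1 (log2 −0.54), without *Hbs1l*-/- library 3 (−0.38) and without control library 3 (−0.45). Thus 7 genes rose, 1 fell and *Gbp5* and *Tgtp1* were too low to be tested, where 17.4% of the 11984 genes tested rose and 16.7% fell. *Gbp5* had 12 footprints against 7 in the controls, 6.31 times the CPM of controls (95% counting interval 2.29 to 18.9), with overlapping libraries. *Tgtp1* had 11 against 10, or 4.05 times (1.56 to 10.6). The plot of MEF footprints shows each library.

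**Figure D2:**
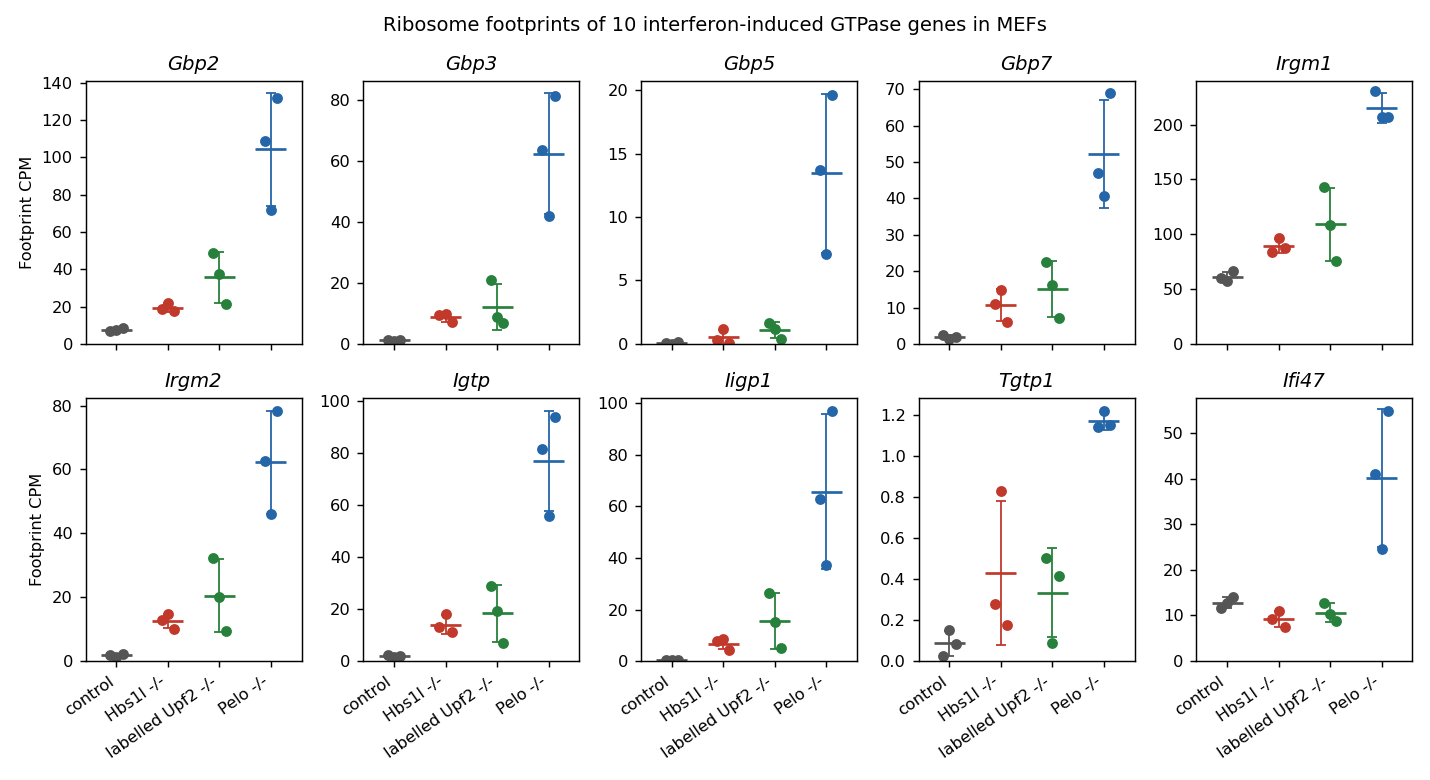
Footprint CPM of the 10 genes in MEFs, by library (points), with the mean (horizontal line) and SD (bars), for 3 summed control, 3 *Hbs1l*-/-, 3 labelled *Upf2*-/- and 3 *Pelo*-/- libraries; each panel has its own linear axis from 0. *Pelo*-/- libraries are highest in every panel, and *Ifi47* is the one gene whose means in the other mutants are no higher than in controls.

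The mRNA of the same comparison was tested for 9 genes. *Gbp3* mRNA rose 6.57-fold, from 0.569, 0.32 and 0.733 to 3.2, 5.55 and 2.37 CPM (edgeR adjusted p = 0.0023). *Igtp* mRNA rose 9.05-fold, from 0.996, 0.52 and 1.25 to 8.92, 12 and 5.17 CPM, and *Irgm2* mRNA 8.47-fold, from 0.616, 1.0 and 1.57 to 9.26, 13.5 and 6.15 CPM (edgeR adjusted p = 0.0012 for both). No mutant library of these genes overlapped with a control. *Iigp1* rose 10.2-fold, *Gbp7* 5.46-fold, *Gbp2* 2.4-fold and *Tgtp1* 2.16-fold (edgeR adjusted p = 0.0061, 0.0029, 0.012 and 0.023). As in footprints, *Iigp1* controls were too low to pass the count filter by themselves, and its mRNA call has the same limit. The *Gbp2* call was lost without control library 2 (log2 1.15), and the *Tgtp1* call without *Hbs1l*-/- library 2 (0.76), control library 2 (1.06) or control library 3 (1.13). So 7 genes rose in mRNA, against 12.7% of the 15318 genes tested. *Irgm1* (39.6, 67.5 and 50.8 against 34.6, 39.1 and 39.6 CPM) did not pass with edgeR adjusted p = 0.057, but did by DESeq2 (log2 0.48), without a count filter (0.53), over protein-coding transcripts alone (0.50) and without *Hbs1l*-/- library 1 (0.64). *Ifi47* mRNA had a log2 difference of −0.45 ± 0.19 SE (edgeR adjusted p = 0.11), and *Gbp5*, at 0.0474, 0.2 and 0.0533 against 0.414, 0.372 and 0.201 CPM, was not tested. The median log2 ratio over the 10 genes was 1.749 for footprints (all genes −0.027) and 1.366 for mRNA (all genes −0.012). These medians depend on the pseudocount: with 0.1 CPM the footprint median was 2.163, and with 2 CPM the mRNA median was 0.772.

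No TE difference was called between *Hbs1l*-/- and control MEFs. Of 9 genes tested, edgeR called none, none had an unadjusted p under 0.05, and no other tool was run for TE. It called 0.0152% of the 13146 genes tested, so few calls were made on any gene. The log2 TE differences were 0.33 ± 0.52 SE in *Gbp3*, 0.26 ± 0.34 in *Gbp2*, 0.12 ± 0.59 in *Gbp7*, 0.09 ± 0.20 in *Irgm1*, −0.22 ± 0.48 in *Irgm2*, −0.28 ± 0.49 in *Igtp*, 0.85 ± 0.92 in *Iigp1*, 2.37 ± 1.22 in *Tgtp1* and −0.06 ± 0.24 in *Ifi47*.

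**Figure D3:**
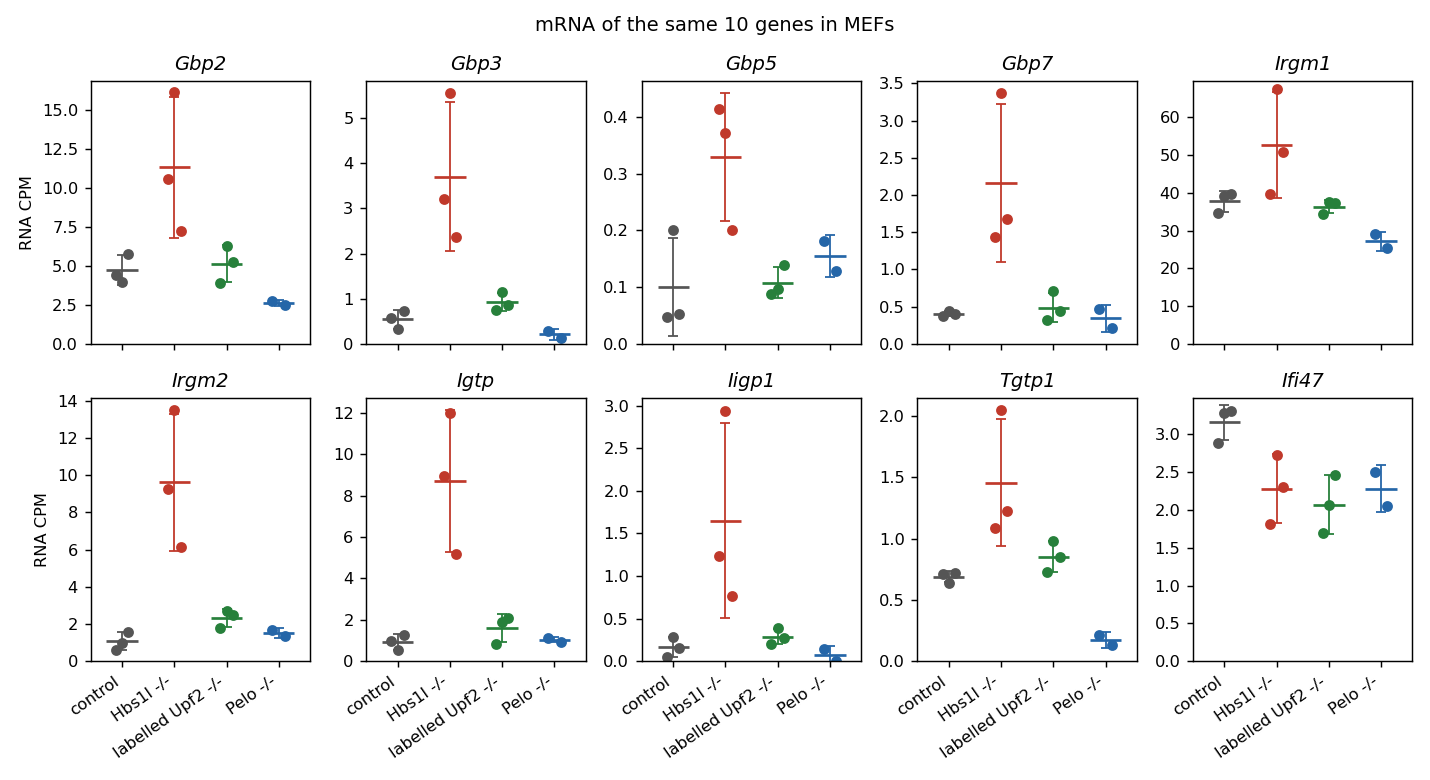
mRNA CPM of the same genes in MEFs, by library (points), with the mean (horizontal line) and SD (bars), for 3 control, 3 *Hbs1l*-/-, 3 labelled *Upf2*-/- and 2 *Pelo*-/- libraries; each panel has its own linear axis from 0. *Hbs1l*-/- libraries are the high ones for *Gbp2*, *Gbp3*, *Gbp7*, *Irgm2*, *Igtp*, *Iigp1* and *Tgtp1*, and *Pelo*-/- libraries are below the control range for 5 genes.

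In the libraries labelled *Upf2*-/-, footprints of these genes rose as well, with a wide spread between libraries. *Irgm2* rose 12.3-fold, to 32.2, 20 and 9.37 CPM (edgeR adjusted p = 4.4e-05), and *Iigp1* 21.9-fold, to 26.5, 15.2 and 5.1 CPM (log2 4.46 ± 0.55 SE, edgeR adjusted p = 8.3e-05). Here too *Iigp1* passed the count filter through the mutant libraries, its controls being too low by themselves. *Gbp3* rose 9.11-fold, to 20.9, 8.91 and 6.89 CPM (edgeR adjusted p = 0.00014). Each of these libraries stood above all controls, which were at 1.77, 1.37 and 2.34 CPM for *Irgm2* and are given above for *Iigp1* and *Gbp3*. Library 1 was the highest for all 10 genes. *Igtp* rose 9.03-fold, *Gbp7* 8.02-fold, *Gbp2* 4.6-fold and *Irgm1* 1.77-fold (edgeR adjusted p = 0.00017, 0.00013, 4.9e-05 and 0.0025). *Ifi47* was at 12.8, 10.3 and 8.82 CPM, overlapping with its controls (log2 −0.20 ± 0.16 SE, edgeR adjusted p = 0.34). Thus 7 genes rose where 22.3% of the 12166 genes tested did, and *Gbp5* and *Tgtp1* were not tested. *Gbp5* had 26 footprints against 7, or 17.9 times the CPM of controls (95% counting interval 7.56 to 48.8), and *Tgtp1* 7 against 10, or 3.37 times (1.09 to 9.81). The *Tgtp1* libraries overlapped with their controls.

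Of their mRNAs only 1 of 9 tested passed, with 3 at an unadjusted p under 0.05. *Irgm2* mRNA rose, to 1.78, 2.72 and 2.5 CPM from 0.616, 1.0 and 1.57 (2.13-fold, edgeR adjusted p = 0.031), where 13.2% of the 15983 genes tested rose. The call was lost without labelled *Upf2*-/- library 2 (log2 1.00) or 3 (1.04) and without control library 1 (0.85) or 2 (1.03). *Gbp3* mRNA was at 0.759, 1.14 and 0.871 CPM (log2 0.74 ± 0.33 SE, edgeR adjusted p = 0.13), just above its controls. *Igtp* was at 0.846, 1.87 and 2.1 CPM (edgeR adjusted p = 0.16) and passed without labelled *Upf2*-/- library 1 (log2 1.08) and without a count filter (0.83). *Gbp2* (log2 0.14 ± 0.21), *Gbp7* (0.33 ± 0.36), *Iigp1* (0.86 ± 0.50), *Tgtp1* (0.34 ± 0.26) and *Irgm1* (−0.03 ± 0.11) did not pass, nor did *Ifi47* (−0.58 ± 0.20, edgeR adjusted p = 0.068), which was called lower without labelled *Upf2*-/- library 3 (−0.72). *Gbp5* was not tested. The median log2 ratio over the 10 genes was 2.431 for footprints (all genes −0.024) and 0.155 for mRNA (all genes −0.001).

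TE rose accordingly in the libraries labelled *Upf2*-/-. The gain was 12-fold in *Iigp1* (log2 3.59 ± 0.93 SE, edgeR adjusted p = 0.015), 6.27-fold in *Gbp7* (edgeR adjusted p = 0.0097), 5.92-fold in *Irgm2* (edgeR adjusted p = 0.0063) and 5.56-fold in *Gbp3* (edgeR adjusted p = 0.01). *Igtp* gained 5.26-fold, *Gbp2* 4.15-fold and *Irgm1* 1.79-fold (edgeR adjusted p = 0.019, 0.002 and 0.018). *Tgtp1* (log2 1.26 ± 0.89, edgeR adjusted p = 0.35) and *Ifi47* (0.37 ± 0.25, edgeR adjusted p = 0.33) did not pass. So 7 of the 9 genes tested rose in TE, against 7.6% of the 13302 genes tested. The call was lost for *Gbp3* without control mRNA library 3 (log2 2.1), for *Igtp* without labelled *Upf2*-/- footprint library 1 (1.94), control footprint library 2 (2.23) or control mRNA library 3 (2.04), and for *Iigp1* without control mRNA library 2 (3.25) or 3 (3.68). The footprint controls of the *Hbs1l*, *Upf2* and *Pelo* comparisons differed by about sampling noise and are taken as the same libraries sequenced in different pools, and the mRNA controls were shared outright, so these comparisons are not independent of each other or of the one that chose the genes.

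**Figure D4:**
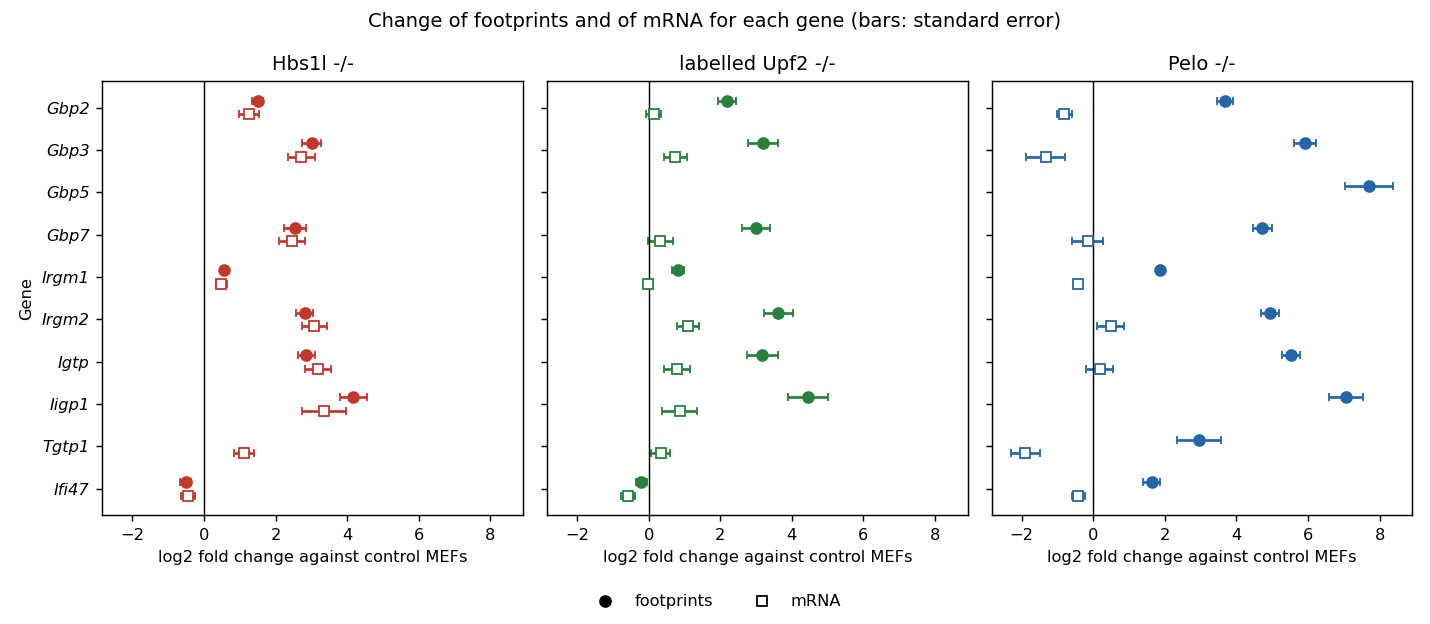
Log2 fold change against control MEFs (x axis) of footprints (filled circles) and mRNA (open squares) for each gene, with the standard error (bars), in *Hbs1l*-/-, labelled *Upf2*-/- and *Pelo*-/- MEFs; genes under the count filter have no symbol. For most genes the 2 symbols lie close together in *Hbs1l*-/- MEFs, are apart in labelled *Upf2*-/- MEFs and are farthest apart in *Pelo*-/- MEFs, where *Gbp3* stands at 5.91 and −1.33.

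The mutants were also compared directly, in joint fits that hold all 4 MEF groups. Controls and *Pelo*-/- libraries thus entered the filter, the scaling and the spread but not the contrast. The footprints of each mutant were sequenced in a separate pool that also held controls. Same-numbered controls differed between pools by about sampling noise (chi-square per gene 1.104 to 1.186). An effect of pool on the mutant libraries themselves was not tested. Footprints were 1.85-fold higher in labelled *Upf2*-/- than in *Hbs1l*-/- MEFs for *Gbp2* alone (log2 0.89 ± 0.26 SE, edgeR adjusted p = 0.034), where 8.69% of the 12812 genes tested were higher. That call was lost without *Hbs1l*-/- library 1 (0.86) or 3 (0.83) and without labelled *Upf2*-/- library 1 (0.64) or 2 (0.85), while without labelled *Upf2*-/- library 3 *Irgm1* (0.49), *Irgm2* (1.04) and *Iigp1* (1.60) passed as well. Among the other genes with enough footprints in these mutants, the log2 differences ran from 0.22 ± 0.29 in *Ifi47* to 1.19 ± 0.48 in *Iigp1*. *Gbp5* and *Tgtp1* footprints entered this fit only through the *Pelo*-/- libraries, and nothing is read from their values. In mRNA, 8 of the 9 genes that were also tested against controls were lower in labelled *Upf2*-/- than in *Hbs1l*-/- MEFs, against 14.3% of the 16218 genes tested. In the same fit 13 of 14 macrophage markers (median log2 difference −1.17) and 7 of 10 fibroblast markers (median −0.76) were lower as well. The fibroblast marker *Fn1* was higher, and the part of these cells in the GTPase difference was not tested. The log2 difference was −2.48 ± 0.54 in *Iigp1*, −2.40 ± 0.36 in *Igtp*, −2.11 ± 0.37 in *Gbp7*, −2.02 ± 0.31 in *Irgm2* and −1.98 ± 0.34 in *Gbp3*, with edgeR adjusted p from 0.00045 to 0.0044. It was −1.12 ± 0.26 in *Gbp2* (edgeR adjusted p = 0.0061), −0.77 ± 0.26 in *Tgtp1* (0.037) and −0.51 ± 0.15 in *Irgm1* (0.02), and −0.12 ± 0.19 in *Ifi47*, which did not pass (0.66). *Gbp5* was under the filter in each mutant against controls and passed it only in the joint fit, so its value (−1.54 ± 0.49) is not counted. Calls were lost for *Irgm1* without *Hbs1l*-/- library 2 (−0.30) or labelled *Upf2*-/- library 1 (−0.50), and for *Tgtp1* without *Hbs1l*-/- library 2 (−0.43), without any 1 of the labelled *Upf2*-/- libraries (−0.70, −0.86 and −0.77 for 1, 2 and 3) and without a count filter (−0.79).

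The difference in TE between the same mutants was tested as well, a comparison added after the data were seen. TE was higher in labelled *Upf2*-/- than in *Hbs1l*-/- MEFs for 6 genes, against 5.31% of the 13440 genes tested: *Iigp1* by log2 3.68 ± 0.77, *Igtp* by 2.77 ± 0.57, *Irgm2* by 2.70 ± 0.48, *Gbp7* by 2.63 ± 0.60, *Gbp3* by 2.40 ± 0.52 and *Gbp2* by 1.99 ± 0.40 (SE, edgeR adjusted p from 0.0044 to 0.013). *Irgm1* (0.78 ± 0.26, edgeR adjusted p = 0.07) did not pass, but did without labelled *Upf2*-/- footprint library 3 (0.99), *Hbs1l*-/- mRNA library 1 (0.92) or a count filter (0.81). *Tgtp1* (0.46 ± 0.86) and *Ifi47* (0.33 ± 0.30) did not pass. *Gbp5* (2.92 ± 0.91, edgeR adjusted p = 0.052) did not pass either, but did without labelled *Upf2*-/- footprint library 3 (3.28), *Hbs1l*-/- footprint library 2 (3.94), *Hbs1l*-/- mRNA library 3 (3.16) or a count filter (2.93), and it was under the filter in the TE of either of these mutants against controls. For *Pelo*-/- MEFs the log2 TE differences from *Hbs1l*-/- MEFs ran from 2.1 ± 0.42 in *Ifi47* to 7.68 ± 1.11 in *Iigp1*, given without a test.

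Macrophage markers moved with these genes in part of the comparisons. The 15 markers summed to 160–218 footprint CPM in control, 274–375 in *Hbs1l*-/-, 224–272 in labelled *Upf2*-/- and 535–767 in *Pelo*-/- MEFs. Of those tested, edgeR called 10 of 13 higher in *Hbs1l*-/- and 6 of 12 in labelled *Upf2*-/- footprints, and *Csf1r*, the macrophage growth factor receptor, went from 18.5–27.2 to 44.5–59.7, 31.7–32.8 and 53.0–84.5 CPM in the 3 mutants in that order. In mRNA the sums were 109–164 CPM in control, 208–283 in *Hbs1l*-/-, 93.7–163 in labelled *Upf2*-/- and 140–204 in *Pelo*-/- MEFs, and 9 of 14 markers were called higher in *Hbs1l*-/- and none in labelled *Upf2*-/- MEFs. No marker of this list was at 0 in a whole MEF group. Endothelial markers moved the other way in footprints, with 10 genes summing to 81.7–104 CPM in control, 40.3–48.6 in *Hbs1l*-/-, 54.6–63.1 in labelled *Upf2*-/- and 27.5–35.8 in *Pelo*-/- MEFs. Their mRNA summed to 33.4–41.7 CPM in control, 17.3–19.5 in *Hbs1l*-/-, 24.2–31.3 in labelled *Upf2*-/- and 38.6–47.8 in *Pelo*-/- MEFs, so the lower sums did not extend to *Pelo*-/- mRNA. Of the 4 endothelial markers tested in footprints, *Selp*, *Emcn* and *Kdr* fell in *Hbs1l*-/- MEFs, while in labelled *Upf2*-/- MEFs *Selp* and *Emcn* fell and *Tek* rose. Of the 10 fibroblast markers, 8 rose and 1 fell in *Hbs1l*-/- footprints and 7 rose and 2 fell in labelled *Upf2*-/- footprints, while in mRNA 5 rose and 1 fell in *Hbs1l*-/- MEFs and 0 rose and 1 fell in labelled *Upf2*-/- MEFs. In TE of labelled *Upf2*-/- MEFs 6 of 10 fibroblast markers (median log2 change 0.67) and 4 of 14 macrophage markers (*Ptprc*, *Ctss*, *Tyrobp* and *Csf1r*, median 0.63) rose as well, while in TE of *Hbs1l*-/- MEFs edgeR called no marker of either list. In TE of *Pelo*-/- MEFs the median log2 change of the macrophage markers was 1.55. The part of these cells in the GTPase changes was not tested.

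Outside MEFs, no change of these genes on loss of *Hbs1l* passed the test. In E8.5 embryos most of them were at the limit of detection. *Irgm1*, the one gene with enough counts to be tested, was at 1.91, 7.1 and 8.58 CPM in *Hbs1l*-/- and 7.19, 3.87 and 2.03 CPM in wild-type embryos (14, 29 and 25 against 19, 16 and 6 footprints), with a log2 difference of 0.36 ± 0.59 SE (edgeR adjusted p = 0.77). It was not called by DESeq2 either, its unadjusted p was not under 0.05 in either tool, and 1.87% of the 11416 genes tested were called in either direction. *Irgm2* had 1.5, 1.47 and 1.37 CPM against 1.89, 2.42 and 3.38 CPM, without overlap but on 4 to 11 footprints a library, and was not tested. *Igtp* had 2.45, 0.98 and 1.03 against 0.0, 1.94 and 2.7 CPM and *Gbp7* 0.408, 0.98 and 1.37 against 0.0, 0.968 and 0.676 CPM, both with overlap. *Gbp2*, *Gbp3*, *Gbp5*, *Iigp1* and *Ifi47* had at most 6 footprints in any embryo library. *Tgtp1* had none among 24114605 counts over the 6 embryo libraries, which allows up to 0.124 CPM.

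In P14 cerebella 9 of the genes were tested and edgeR called none, with no unadjusted p under 0.05 in edgeR or DESeq2, where 0.0624% of 14430 genes were called in either direction. *Gbp2* was at 3.81, 3.52 and 3.01 CPM in *Hbs1l* cKO and 5.74, 5.12 and 2.98 CPM in control cerebella (log2 −0.41 ± 0.28 SE, edgeR adjusted p = 0.57). *Gbp3* (2.48, 2.26 and 2.33 against 2.05, 3.0 and 1.81 CPM) and *Irgm1* (9.17, 6.23 and 8.94 against 7.71, 7.09 and 6.96 CPM) overlapped as well. *Gbp5* had the largest fitted difference, 2.06, 0.992 and 1.61 against 3.61, 4.08 and 1.4 CPM (log2 −0.91 ± 0.44 SE, edgeR adjusted p = 0.42), with control library 3 inside the mutant range. The remaining log2 differences were −0.27 ± 0.32 in *Gbp7*, −0.25 ± 0.37 in *Irgm2*, 0.13 ± 0.25 in *Igtp*, −0.62 ± 0.47 in *Iigp1* and −0.10 ± 0.29 in *Ifi47*. *Tgtp1*, at 0.0459, 0.0 and 0.0 against 0.0821, 0.0469 and 0.0904 CPM, was not tested. Whether the *Hbs1l* effect differed between embryos and cerebella could be tested for *Irgm1* (log2 difference 0.17 ± 0.65 SE, edgeR adjusted p = 0.95), where 0.732% of 14624 genes were called. The other 8 genes in that fit had passed the filter through their cerebellar counts, and nothing is read from their values. The median log2 ratio over the 10 genes was 0.080 in embryos (all genes 0.016) and −0.199 in cerebella (all genes 0.001). Early embryo markers summed to 2162–4531 CPM in mutant against 7681–10104 in control embryos, and cerebellar markers to 12950–15228 against 18232–19447 CPM in cerebella. Of 9 early embryo markers tested, the embryonic globins *Hbb-y* and *Hba-x* fell, *Pou5f1* rose and 6 were not called (median log2 change 0.16), and edgeR called none of the 12 cerebellar markers (median −0.27). The part of these markers in the GTPase values was not tested.

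**Figure D5:**
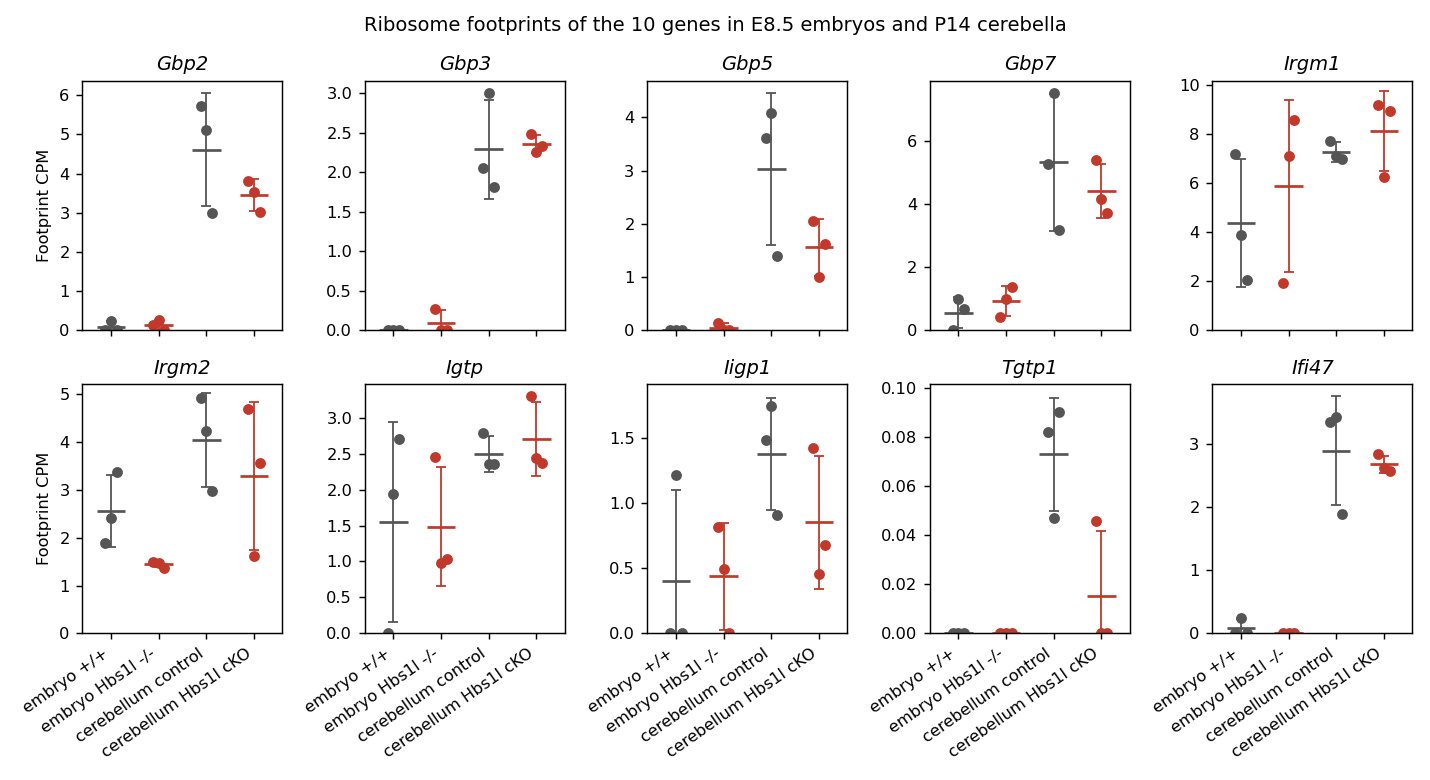
Footprint CPM of the 10 genes in E8.5 embryos (*Hbs1l*+/+ and *Hbs1l*-/-) and P14 cerebella (control and *Hbs1l* cKO), by library (points), with the mean (horizontal line) and SD (bars) of 3 libraries; each panel has its own linear axis from 0. Mutant and control libraries overlap in every panel except *Irgm2* in embryos and *Tgtp1* in cerebella, and *Tgtp1* has no embryo footprint.

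The pathway that induces these GTPases was followed through 37 listed genes. None of the 10 interferon ligands had enough counts to be tested in any comparison: *Ifng*, the type II interferon, was at 0 CPM in every MEF library, and *Ifnb1*, a type I interferon, was at 0 in control MEF footprints, at 0.0–0.0694 CPM in *Hbs1l*-/-, at 0.0–0.275 in labelled *Upf2*-/- and at 0.359–0.767 CPM in *Pelo*-/- footprints. Of 5 receptors tested in *Hbs1l*-/- footprints, *Il10rb* (log2 −0.48 ± 0.14 SE) and *Ifngr2* (−0.62 ± 0.11) fell (edgeR adjusted p = 0.018 and 0.00079). Of 13 kinases and transcription factors, 8 rose and none fell, among them *Stat2* (log2 2.02 ± 0.16), *Irf9* (2.75 ± 0.19) and *Irf7* (3.63 ± 0.29), factors of the type I response (edgeR adjusted p from 6.1e-07 to 1.9e-06). *Irf1*, which acts on GBP promoters, rose by log2 0.79 ± 0.15 (edgeR adjusted p = 0.0012). *Jak1* (0.24 ± 0.07), *Irf2* (0.29 ± 0.10) and *Stat3* (0.21 ± 0.06) rose by less (edgeR adjusted p = 0.01, 0.047 and 0.021). Of 6 inhibitors, *Usp18*, which dampens type I receptor signalling, rose by log2 4.44 ± 0.27 and *Socs3* by 0.93 ± 0.23 (edgeR adjusted p = 2.6e-07 and 0.0062). In all, 10 of 24 genes tested rose and 2 fell in *Hbs1l*-/- footprints (17.4% and 16.7% of all genes), 12 of 25 rose and none fell in mRNA (12.7% of all genes rose), and none of 25 was called in TE.

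In labelled *Upf2*-/- MEFs 10 of 24 pathway genes rose and 2 fell in footprints, where 22.3% of all genes rose and 2564 of the 12166 tested fell. In mRNA 7 of 25 rose, where 13.2% of all genes did. Here part of the pathway rose in mRNA where most of the GTPases did not pass: *Stat2* mRNA rose by log2 1.62 ± 0.17, *Irf7* by 1.82 ± 0.38, *Irf9* by 1.53 ± 0.27 and *Usp18* by 2.00 ± 0.42 (edgeR adjusted p = 0.00012, 0.0077, 0.0029 and 0.0082). *Irf1* mRNA (0.12 ± 0.17) did not pass. TE rose for 6 of 25 genes, against 7.6% of all genes, *Stat2*, *Irf1*, *Irf7*, *Irf9* and *Usp18* among them, by log2 1.06 ± 0.23 in *Irf1* to 2.92 ± 0.76 in *Usp18*. It fell for *Il10rb* (−0.64 ± 0.20) and *Ifngr2* (−0.74 ± 0.16), as it did for 1381 of all 13302 genes tested. In *Pelo*-/- MEFs, as a description, *Usp18* footprints were at 159–217 CPM against 1.22–2.2 in controls, while its mRNA was at 0.728–1.01 against 0.72–0.973 CPM. No pathway gene was called in embryos (19 tested) or cerebella (24 tested).

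The other interferon-inducible GTPases were mostly too low to be tested. Of 19 listed relatives, 2 were tested in *Hbs1l*-/- footprints and neither passed, while in mRNA 4 of 8 rose (*Mx2*, *Gbp9*, *Tgtp2* and *Gbp6*) and 2 fell. Of all 15318 genes tested in that mRNA comparison, 12.7% rose and 1598 fell. In labelled *Upf2*-/- MEFs 3 of 6 relatives tested rose in footprints, against 22.3% of all genes, and 3 of 7 in mRNA, against 13.2%. The antiviral dynamin-like GTPases *Mx1* and *Mx2* rose in footprints by log2 4.86 ± 0.67 and 5.36 ± 0.48 (edgeR adjusted p = 0.00017 and 1.2e-05) and in mRNA by 3.26 ± 0.54 and 6.06 ± 0.57 (edgeR adjusted p = 0.002 and 5.9e-05). The TE of *Mx1* and *Mx2* did not pass (1.78 ± 1.18 and −0.64 ± 0.99). *Gm4951*, which shares part of its coding sequence with *Iigp1*, rose in footprints (log2 6.32 ± 0.87, edgeR adjusted p = 0.00017), from 0.0–0.165 to 0.826–4.0 CPM, and in TE (5.83 ± 1.52, edgeR adjusted p = 0.016), with fitted sizes that depend on the prior count at these low levels. *Tgtp2* mRNA rose (2.61 ± 0.54, edgeR adjusted p = 0.0076), and TE of *9930111J21Rik1* fell (−1.75 ± 0.52, edgeR adjusted p = 0.03). For all relatives the difference from the TE of the 10 GTPases was not tested.

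Across the 12 MEF footprint libraries, with the controls counted once, the genes followed each other. The Pearson correlation of log2(CPM + 0.5) with the mean of the other 9 lay between 0.942 and 0.990 for 8 genes and was lower for *Tgtp1* (0.867) and *Ifi47* (0.719). The libraries share the groups described above and the *Pelo*-/- values that chose the genes, so these are descriptions without a p. Among 9843 other genes with a mean of at least 5 CPM, the 10 closest to the mean of the list were *Slfn8* (0.995), *Irf1* (0.993), *Herc6* (0.993), *Tmem106a* (0.992), *Zbp1*, *Trim30a*, *Parp10* and *Uba7* (each 0.991), and *Fermt3* and *Cxcl10* (each 0.990). *Cxcl10*, a chemokine named for its induction by interferon, went from 2.44–4.73 footprint CPM in controls to 22.2–30 in *Hbs1l*-/-, 29.1–78.9 in labelled *Upf2*-/- and 174–449 in *Pelo*-/- MEFs. Its mRNA went from 1.85–2.68 to 12.7–25.9, 4.03–8.56 and 2.44–2.94 CPM. *Zbp1*, a sensor of Z-form nucleic acid, went from 0.0544–0.175 footprint CPM to 1.41–2.82, 0.964–5.67 and 14.3–36.2 CPM in the same order, and its mRNA from 0.0948–0.227 to 1.37–2.97, 0.234–0.708 and 0.0857–0.217 CPM. Summed over the 10 GTPases, footprints stood at 83.5–97.3 CPM in control, 151–197 in *Hbs1l*-/-, 142–338 in labelled *Upf2*-/- and 533–834 in *Pelo*-/- MEFs, and mRNA at 45.2–53.6, 77.5–126, 44.7–53.8 and 32.9–38.4 CPM.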

How the data were processed

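Ribosome footprints were measured in 30 libraries and mRNA in 11. The authors deposited footprint counts per gene over coding sequence (reads aligned with HISAT2 2.1.0 after removal of rRNA and tRNA reads with Bowtie2 2.2.3, counted with featureCounts on mm10), and estimated counts and TPM per transcript from kallisto 0.42.4 with Gencode M24. The authors left out 1 further *Pelo*-/- mRNA library as an outlier.

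Here, the kallisto estimates of a gene's transcripts were added and rounded to whole counts. Counts were tested with edgeR 4.0.16 (R 4.3.3; TMM factors, filterByExpr, quasi-likelihood test, Benjamini-Hochberg adjustment over all genes tested), with each MEF mutant against the controls of its own pool. CPM of MEF controls are given over pools summed. A TE difference is the assay-by-genotype term of a joint edgeR fit to footprints and mRNA. Alternatives were DESeq2 1.42.0, other scaling, no filter, protein-coding transcripts, summed controls, a replicate block and leaving out each library. Medians used log2(CPM + 0.5). Intervals and floors (3 counts) cover counting error only. Multimapping reads can be split differently by featureCounts and kallisto, which matters most for *Tgtp1*, and the tests were tried on simulated data first. All deposited columns belonged to these samples.

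The 10 genes, the pathway, relative and marker lists were chosen with earlier results of these data known. The text gives the 10 genes in the comparisons where they could be measured, the targeted genes in the libraries of their mutants and controls, examples of list members that passed or are needed to describe a list, and the 10 genes closest to the list's mean across MEF footprint libraries (mean of at least 5 CPM). Other list members are given as counts, and 1 pathway gene is counted but not reported by name here.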

Additional observations from a re-analysis of the deposited data

Results flagged for a closer look

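Several genes differed between mutants under the same kind of comparison. Of footprints, *Gbp2* differed between labelled *Upf2*-/- and *Hbs1l*-/- MEFs (log2 0.89, edgeR), where 8.69% of all genes tested were higher. Of mRNA, 8 of 9 genes that were also tested against controls were lower in labelled *Upf2*-/- MEFs by the same test, against 14.3% of all genes tested, with log2 differences of −1.98 in *Gbp3*, −1.12 in *Gbp2*, −2.11 in *Gbp7*, −0.51 in *Irgm1*, −2.02 in *Irgm2*, −2.40 in *Igtp*, −2.48 in *Iigp1* and −0.77 in *Tgtp1*. *Gbp5* passed the filter only in the joint fit, and its value of −1.54 is not counted. Macrophage markers (13 of 14) and fibroblast markers (7 of 10, with *Fn1* higher) were also lower in that mRNA fit. Their part in the GTPase difference was not tested. Of TE, 6 genes were higher in labelled *Upf2*-/- MEFs, against 5.31% of all genes tested, with log2 differences of 2.63 in *Gbp7*, 2.40 in *Gbp3*, 1.99 in *Gbp2*, 2.77 in *Igtp*, 2.70 in *Irgm2* and 3.68 in *Iigp1*.

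In mRNA, 3 genes had every *Hbs1l*-/- library above and every *Pelo*-/- library below all controls. Of all 35041 genes with mRNA in these libraries, 513 (1.46%) showed the same pattern, and since *Pelo*-/- values chose the genes nothing is read from the count. The log2 fold change of the 3 genes in *Hbs1l*-/- MEFs was 1.26 in *Gbp2*, 2.72 in *Gbp3* and 1.11 in *Tgtp1*, and their fitted *Pelo*-/- minus *Hbs1l*-/- difference was −2.09 ± 0.33, −4.08 ± 0.52 and −3.04 ± 0.40 (SE) in the same order. No test of this difference is given, and it counts as not tested, because *Pelo*-/- values chose the genes.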

How the results depend on the processing

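Of 2269 recomputed fold changes of single genes, 2135 stayed the same, 39 reversed, 33 lost and 17 gained a call, and 45 untested values moved by more than the standard error of the main fit. The same means direction and side of the threshold for tested values, and a move within that standard error for untested ones. For the changes that follow, the cause was not tested. Leaving out 1 library at a time moved the median log2 ratio over the 10 genes between 0.000 and 0.183 in embryos and between −0.357 and −0.082 in cerebella. The number of genes called then ran from 28 to 2309 in embryos, 0 to 560 in cerebella, 1817 to 2663 in *Hbs1l*-/- mRNA, 0 to 39 in *Hbs1l*-/- TE, 1800 to 3201 in labelled *Upf2*-/- mRNA, 1375 to 2778 in labelled *Upf2*-/- TE, 8 to 1123 for embryo minus cerebellum, and for labelled *Upf2*-/- minus *Hbs1l*-/- 1196 to 2146 in footprints and 604 to 1611 in TE. Of the 10 genes, 0 to 2 were called in labelled *Upf2*-/- mRNA and 0 to 4 in the footprint difference between these mutants. Directions turned within these log2 ranges: in embryos *Irgm1* (−0.029 to 0.886), in cerebella *Gbp3* (−0.122 to 0.294), *Gbp7* (−0.548 to 0.082), *Irgm2* (−0.588 to 0.038), *Igtp* (−0.046 to 0.223) and *Ifi47* (−0.343 to 0.051), and in *Hbs1l*-/- TE *Gbp3* (−0.062 to 0.748), *Gbp7* (−0.159 to 0.627), *Irgm1* (−0.059 to 0.300), *Irgm2* (−0.712 to 0.091), *Igtp* (−0.668 to 0.020) and *Ifi47* (−0.175 to 0.093). They also turned in labelled *Upf2*-/- mRNA for *Gbp7* (−0.026 to 0.529) and *Irgm1* (−0.083 to 0.013), in labelled *Upf2*-/- minus *Hbs1l*-/- footprints for *Gbp3* (−0.131 to 0.677) and *Tgtp1* (−0.695 to 0.330) and mRNA for *Ifi47* (−0.271 to 0.023), and for embryo minus cerebellum in *Gbp3* (−0.035 to 4.173), *Irgm1* (−0.117 to 0.738), *Igtp* (−0.763 to 0.460), *Iigp1* (−0.115 to 6.326) and *Ifi47* (−3.760 to 0.108), which rest on a few embryo footprints. A pseudocount of 0.1 CPM moved the median to 0.209 in embryos and 2.163 in *Hbs1l*-/- footprints, and 2 CPM moved it to 0.772 in *Hbs1l*-/- mRNA and 3.629 in *Pelo*-/- footprints. Without a count filter 703 genes were called in embryos (214 with it), 16 in cerebella (9), 22 in *Hbs1l*-/- TE (2) and 2 of the 10 genes in labelled *Upf2*-/- mRNA. DESeq2 called 432 genes in embryos and 484 in cerebella. Protein-coding transcripts alone left 0 calls in *Hbs1l*-/- TE, and summed controls gave 11. *Irgm1* in labelled *Upf2*-/- mRNA (−0.03) turned to 0.011 without a filter and 0.010 over protein-coding transcripts. Same-numbered libraries share only a number (correlations of deviations −0.320 to 0.424). A replicate block gave 564 calls in embryos, 0 in cerebella, 23 in *Hbs1l*-/- TE and 891 in the TE difference between mutants, and *Gbp2* (1.19) and *Tgtp1* (1.04) in *Hbs1l*-/- mRNA and *Tgtp1* in the mRNA difference (−0.74) did not pass with it. With few embryo footprints, a change in 9 of the 10 genes could not be tested there.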
